A study of Mus musculus with 8 samples.

Results

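The JAK family of tyrosine kinases has 4 genes, Jak1, Jak2, Jak3 and Tyk2, among the 31829 gene names on the array, and every probe that carries one of these names was taken. They were 5 probes, 1 each for Jak1, Jak2 and Tyk2 and 2 for Jak3, of the 39429 different probes that are not controls. Each was printed as a single spot, and all 5 passed the filter on dim probes, being well above background on 8 of 8 arrays and saturated on 0.

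JAK kinases sit on the inner ends of cytokine receptors that have no kinase of their own. When a cytokine joins the receptor chains, the bound kinases phosphorylate each other and the receptor, and STAT transcription factors that dock there are phosphorylated in turn. Jak1, Jak2 and Tyk2 are made in most tissues, whereas Jak3 is made mainly in lymphoid and some myeloid cells, where it pairs with the common gamma chain encoded by Il2rg. A kinase inhibitor blocks the enzymes, and its effect on their activity is not seen in the levels of their transcripts, which is what the arrays measured.

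The samples were ovarian tumours of female C57BL/6JTgMISIIR-TAg mice, 1 tumour per mouse. In this strain Amhr2, the gene of the receptor for anti-Müllerian hormone, lends its promoter to the SV40 T antigen, so both groups carry the oncogene and the model rests on cells that use that promoter. The 4 AZD1480 mice received 30 mg/kg of AZD1480, an ATP-competitive inhibitor of JAK1 and JAK2, and the 4 vehicle mice received the carrier alone, 0.5% hypermellose with 0.1% Tween 80. Dosing began at a tumour volume of about 500 mm3, and tumour tissue was collected 6 h later. The series title names inhibition of the JAK/STAT3 pathway, and the comparison here asks whether the transcripts of the drug's own target family differed at that time.

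Total RNA was hybridised to one-colour arrays on 2 slides, each with 2 AZD1480 and 2 vehicle arrays. Slide 1 was the brighter, with a 75th percentile of processed intensity of 4706 to 5795 against 1587 to 2783 on slide 2, and between 66.9% and 76.4% of spots were well above background. AZD1480 replicate 1 stood apart from the other tumours, with a median correlation across probes of 0.896 with the other 7 arrays, where the rest had 0.960 to 0.974. It also lacked most of the oviduct ciliated cell signal, whose summed level over 7 markers was 1.77 there, 53.1 to 55.5 on the other AZD1480 arrays and 46.5 to 75.1 on the vehicle arrays. The keratins Krt8 and Krt18 and the transcription factor Wt1 were well above background on all 8 arrays. The epithelial genes Epcam and Cdh1 were dim, with mean log2 levels of -4.12 and -4.04 in AZD1480 and -2.80 and -2.64 in vehicle tumours. Cdh1 was well above background on 3 of 4 AZD1480 arrays. Amhr2 was so on all 8 arrays, but its log2 level ran from -0.75 to 6.83 between tumours. The differences of the kinases are therefore also given without AZD1480 replicate 1 or within each slide. In these bulk tumours, fewer cells of a type and less RNA per cell cannot be told apart.

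Positions were read from the array files and refer to mm9. The Jak1 probe (A_52_P106463) lies at chr4:100825094-100825153 on the minus strand, the Jak2 probe (A_55_P1971458) at chr19:29387487-29387546 on the plus strand and the Tyk2 probe (A_51_P466824) at chr9:20909321-20909380 on the minus strand. The 2 Jak3 probes lie on the plus strand of chromosome 8, one (A_55_P2010912) at 74210801 to 74210860 and the other (A_51_P355360) at 74214085 to 74214144. The exons and UTRs of that build were not used here. The 2 Jak3 probes are shown because they do not report on the same transcripts. The array file lists Jak3 alone for the first and both Jak3 and Insl3, an insulin-like hormone made by theca and Leydig cells, for the second. In the RefSeq table of the GRCm38.p6 build, Insl3 (71689252 to 71690577) lies wholly inside the span of Jak3 (71676383 to 71690577) and ends at the same base. The first probe is given whole and the second by its first 30 bases, both 5′ to 3′ as printed in the array file.
A_55_P2010912, Jak3 alone: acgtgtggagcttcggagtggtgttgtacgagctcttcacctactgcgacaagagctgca
A_51_P355360, Jak3 and Insl3: tggctagagcagagacatctcctgcacgcg
Their GC contents are 55% and 65%, against 35% for the Jak1 and Jak2 probes and 45% for the Tyk2 probe. The first is called the Jak3-only probe below and the second the shared probe.

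Levels are log2 processed intensities minus the 75th percentile of the same array, so a value of 0 marks the 75th percentile. A probe's brightness depends on its sequence as well as on its transcript, so levels are compared between tumours for one probe and are not used to order the kinases by abundance. In vehicle tumours the Jak2 probe averaged 2.91 ± 0.25 and the Jak1 probe 1.73 ± 0.29 (SD, n = 4), both above the 75th percentile on every array of both groups. The Tyk2 probe averaged -1.79 ± 0.20 there, the Jak3-only probe -3.54 ± 0.27 and the shared probe -3.42 ± 0.69, all below it on every array of both groups.

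Jak1, the kinase shared by interferon, gp130 and common gamma chain receptors, was at 2.64, 1.21, 1.72 and 1.58 in AZD1480 replicates 1 to 4, against 2.02, 1.35, 1.89 and 1.68 in vehicle replicates 1 to 4. The AZD1480 tumours held both the highest and the lowest of the 8 values, both on slide 1, and the groups overlapped. The log2 difference was 0.06 ± 0.32 (limma's moderated SE, n = 4 per group), with a 95% interval of -0.68 to 0.79 and a limma adjusted p of 0.991. Without AZD1480 replicate 1 the difference was -0.23.

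Jak2, which serves the receptors of erythropoietin, growth hormone and prolactin, was at 1.24, 2.84, 2.41 and 2.84 in AZD1480 replicates 1 to 4, against 2.82, 2.86, 3.27 and 2.70 in vehicle replicates 1 to 4. AZD1480 replicate 1 was the lowest of the 8, and 2 of the AZD1480 values lay within the vehicle range. The difference was -0.58 ± 0.37 (95% interval -1.43 to 0.27, limma adjusted p = 0.953), a level 1.50-fold lower in the AZD1480 group. It was -0.22 without AZD1480 replicate 1, -0.80 within slide 1 and -0.36 within slide 2.

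Of the 5 probes, the 2 for Jak3 had the differences farthest from 0. On the Jak3-only probe the level was -4.92, -4.62, -4.00 and -3.88 in AZD1480 replicates 1 to 4, against -3.85, -3.67, -3.37 and -3.26 in vehicle replicates 1 to 4. All 4 AZD1480 tumours lay below all 4 vehicle tumours, narrowly over both slides together, and on each slide both AZD1480 values lay below both vehicle values. The difference was -0.82 ± 0.28 (95% interval -1.46 to -0.19), a level 1.77-fold lower in the AZD1480 group. A two-sided exact permutation test over the 70 ways of drawing 4 of 8 arrays gave an unadjusted p of 0.0286, the smallest that 4 against 4 allow. The limma p was 0.0177 unadjusted and 0.953 adjusted over all probes, so the probe did not pass. The processed intensities behind it ran from 108 to 216 in AZD1480 tumours and from 261 to 407 in vehicle tumours. The difference was -0.63 without AZD1480 replicate 1, -1.02 within slide 1 and -0.63 within slide 2. With slide as a covariate the SE was 0.15 (limma adjusted p = 0.841), while that of the shared probe was 0.41.

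The shared probe was at -5.18, -4.67, -4.64 and -3.82 in AZD1480 replicates 1 to 4, against -2.63, -4.23, -3.14 and -3.70 in vehicle replicates 1 to 4. The groups overlapped through AZD1480 replicate 4 and vehicle replicate 2. Its difference was -1.15 ± 0.41 (95% interval -2.10 to -0.21, limma p = 0.0226 unadjusted and 0.953 adjusted over all probes; exact permutation p = 0.0571). Since its row names Insl3 as well, this value is uncertain as to which of the 2 transcripts it comes from. Over the 8 arrays the Jak3 probes had a Pearson r of 0.713 (exact permutation p = 0.0469) and a Spearman rho of 0.786 (exact permutation p = 0.0279), and r was 0.356 once the mean of each treatment group was taken out. Without the 2 arrays farthest from the median of the shared probe r was 0.797, and it was 0.739 after centring on slide.

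Tyk2, the partner of Jak1 at type I interferon and IL-10 family receptors, was at -2.21, -1.94, -1.51 and -1.22 in AZD1480 replicates 1 to 4, against -1.88, -2.02, -1.69 and -1.57 in vehicle replicates 1 to 4. Its levels were higher on slide 2 than on slide 1 in both groups, and the AZD1480 range enclosed the vehicle range. The difference was 0.07 ± 0.24 (95% interval -0.49 to 0.64, limma adjusted p = 0.981). It was -0.12 within slide 1 and 0.27 within slide 2.

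**Figure D1:**
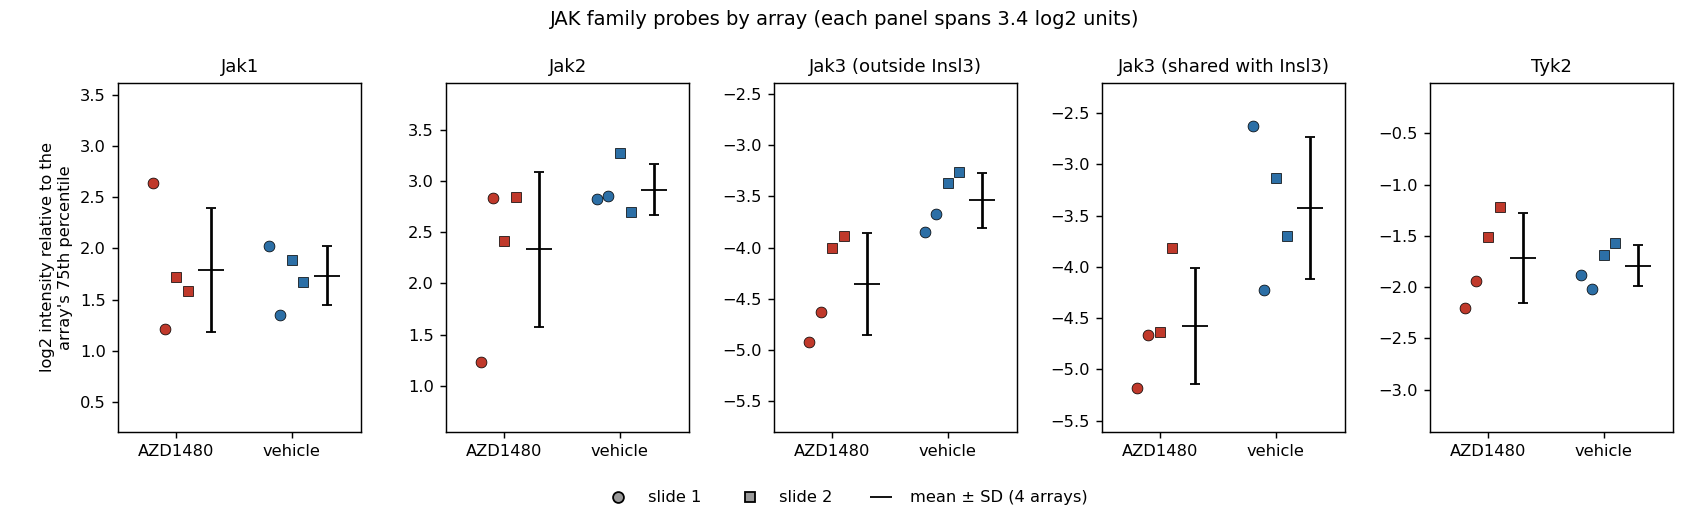
Log2 intensity of each JAK probe relative to the 75th percentile of its array, by tumour, with circles for slide 1, squares for slide 2 and the mean ± SD of 4 arrays beside each group. The AZD1480 tumours lie below the vehicle tumours on the Jak3-only probe (labelled outside Insl3), and 1 AZD1480 tumour, replicate 1, lies apart at 2.64 for Jak1 and 1.24 for Jak2.

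Of the 5 JAK probes 0 passed limma's test with Benjamini-Hochberg adjustment, where 0 of all 28330 tested probes did (0%). At an unadjusted limma p under 0.05, 2 of the 5 were lower, both of them Jak3 probes. At that p 3.64% of all tested probes differed in either direction and 1.62% were lower. By that p the Jak3-only probe ranked 322 and the shared probe 414 among the 28330. The groups did not overlap, with AZD1480 lower, for 1 of the 5 and for 1.25% of all tested probes. The median difference over all tested probes was 0.06, close to the values of Jak1 and Tyk2, and 6.22% of tested probes were lower by at least as much as the Jak3-only probe. A test of whether the effect differed between the slides gave limma adjusted p of 0.993 for all 5 JAK probes.

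**Figure D2:**
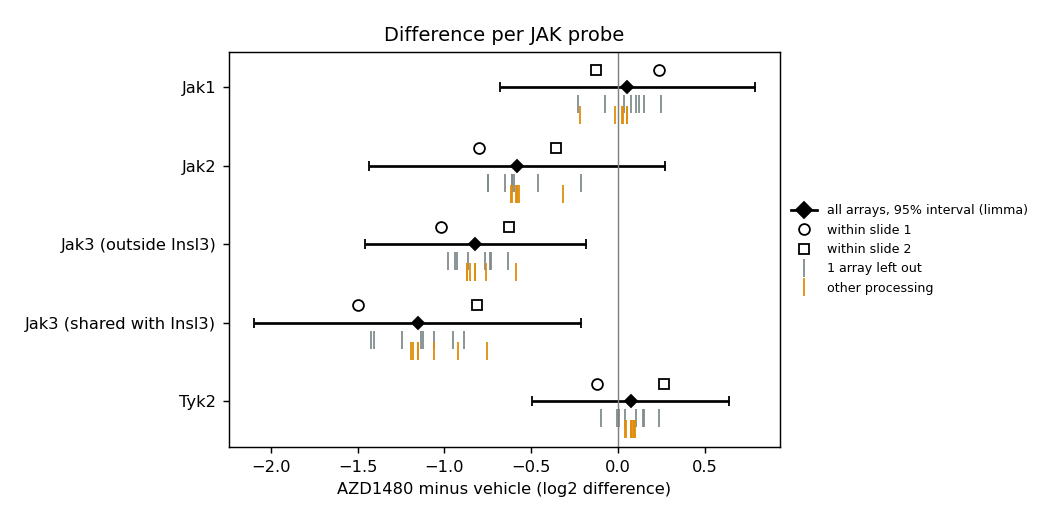
AZD1480 minus vehicle difference on the log2 scale for each JAK probe, with the 95% interval of limma (diamonds), the difference within each slide (open symbols), and the values with 1 array left out (grey) or under other processing (orange). Both Jak3 probes stay below 0 under each setting drawn, whereas Jak1 and Tyk2 fall on either side of it.

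Ratios between probes of the same array do not depend on how arrays are scaled to each other, and they set the kinases against each other within a tumour. For each kinase the brightest kept probe was used, which for Jak3 was the Jak3-only one. The log2 ratio of Tyk2 over Jak3 was 2.72, 2.68, 2.49 and 2.67 in AZD1480 replicates 1 to 4, against 1.96, 1.64, 1.67 and 1.70 in vehicle replicates 1 to 4. The groups were parted, and the shift of 0.90 was large against the spread of 0.10 in AZD1480 and 0.15 in vehicle tumours (SD, n = 4 each). Of the 6 pairs, 1 did not overlap between the groups, this one, and it was picked out after its values were seen. When every other tested probe was set against the Tyk2 probe in the same way, 1.87% were lower in all AZD1480 tumours than in all vehicle tumours, and 2.11% did not overlap in either direction. In a limma fit of those relative values the Jak3-only probe was at -0.90 ± 0.23 (limma adjusted p = 1.00 over all probes, unadjusted p = 0.00375, rank 99 of 28329), and 0 probes passed, with 2.27% of them lower at an unadjusted p under 0.05. With the shared probe in place of the Jak3-only one the shift of Tyk2 over Jak3 was 1.23, and the groups again did not overlap.

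The ratio of Jak2 over Jak1 differed between the groups by -0.64, with an SD of 1.35 in AZD1480 and 0.33 in vehicle tumours. In AZD1480 replicate 1 Jak1 was the highest and Jak2 the lowest of the 8 tumours, and without that array the difference was 0.01. Tyk2 over Jak2 differed by 0.65 (SD 0.55 in AZD1480, 0.31 in vehicle), Jak3 over Jak1 by -0.88 (SD 0.96 and 0.42), Jak3 over Jak2 by -0.24 (SD 0.56 and 0.33) and Tyk2 over Jak1 by 0.02 (SD 0.91 and 0.29), the AZD1480 SD first in each, and in these the groups overlapped. Without AZD1480 replicate 1, Jak3 over Jak1 differed by -0.41, Jak3 over Jak2 by -0.42, Tyk2 over Jak1 by 0.46 and Tyk2 over Jak2 by 0.45. Jak3 over Jak2 differed by 0.01 without AZD1480 replicate 2 and by -0.08 without vehicle replicate 4. Tyk2 over Jak1 was at -0.36 within slide 1 and 0.39 within slide 2, and it had either sign with 1 array left out, from -0.22 without AZD1480 replicate 4 to the value without replicate 1. Tyk2 over Jak3, the pair that did not overlap, stayed between 0.86 and 0.97 with any 1 array left out and was 0.90 within slide 1 and 0.89 within slide 2.

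**Figure D3:**
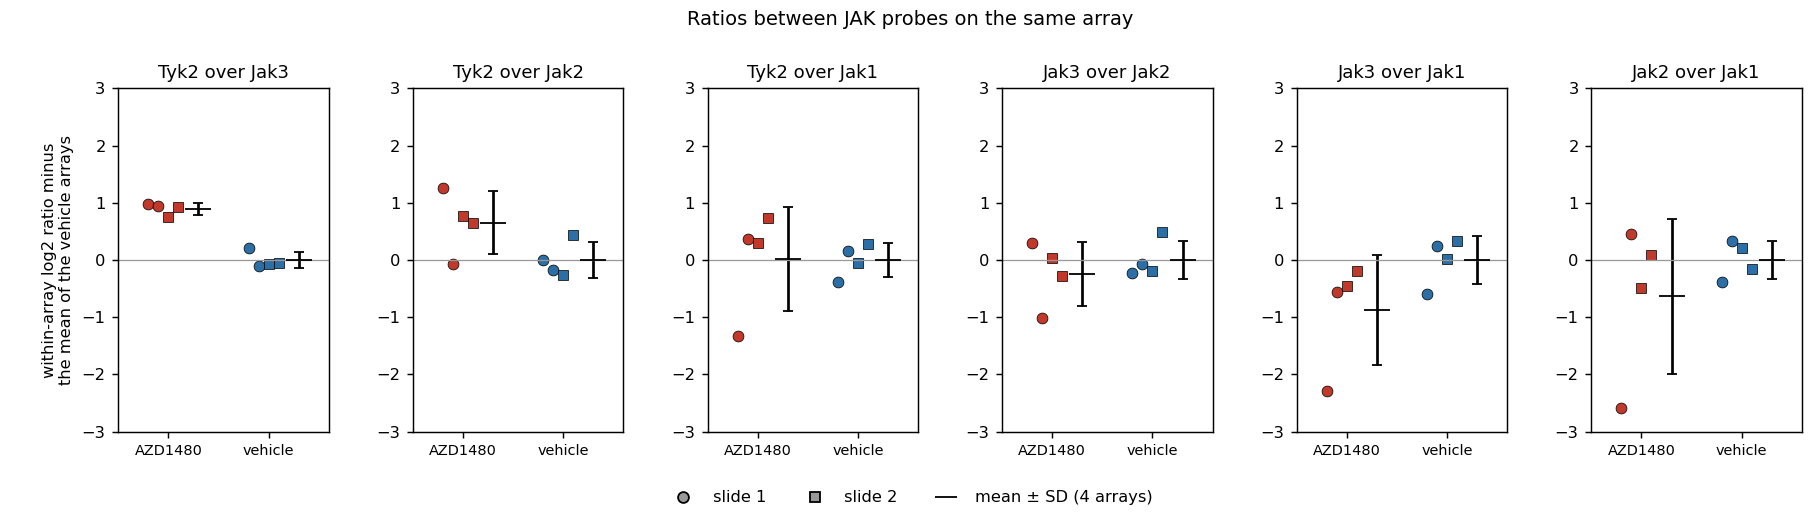
Log2 ratio between 2 JAK probes of the same array, drawn as the distance from the mean of the vehicle arrays, for the 6 pairs, with circles for slide 1, squares for slide 2 and mean ± SD of 4 arrays. Tyk2 over Jak3 is parted by a shift of 0.90, and the AZD1480 tumour that lies far from the rest in the ratios over Jak1 is replicate 1.

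Across the 8 tumours 6 relations between kinases were computed, and 0 passed after Benjamini-Hochberg adjustment. Jak1 and Jak2 had a Pearson r of -0.713 (exact permutation p = 0.0777, adjusted p = 0.233; Spearman rho = -0.452, exact p = 0.267, adjusted p = 0.802). That relation rests on 2 AZD1480 tumours, since r was 0.192 without AZD1480 replicates 1 and 2. Jak2 and Jak3 had r = 0.717 (exact permutation p = 0.0386, adjusted p = 0.232; rho = 0.500, exact p = 0.216, adjusted p = 0.802) and r = -0.074 without AZD1480 replicate 1 and vehicle replicate 3. Jak3 and Tyk2 had r = 0.516 over all tumours (exact permutation p = 0.194, adjusted p = 0.377; rho = 0.310, exact p = 0.462, adjusted p = 0.840). Once the mean of each treatment group was taken out, their r was 0.954 (exact permutation p = 0.00102, adjusted p = 0.00610; rho = 0.881, exact p = 0.00724, adjusted p = 0.0435) and 0.903 without AZD1480 replicates 1 and 2. Both kinases were higher on slide 2. With slide and treatment taken out together r was 0.794 (exact permutation p = 0.0185, adjusted p = 0.0370), while rho was 0.714 (exact p = 0.0576, adjusted p = 0.139). With slide alone taken out r was 0.013, and with the shared probe in place of the Jak3-only one, treatment taken out, it was 0.588 (exact permutation p = 0.123, adjusted p = 0.246). These p-values do not count the means that were taken out. A slide holds 4 arrays, too few for a value within each.

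The genes whose level followed each kinase most closely over the 8 tumours, with group means taken out, were sought among 15339 named genes as a description, and the highest of so many correlations over 8 arrays are high by selection. Jak1 was followed by Ilrun (r = 0.994), Eps15 (r = 0.992), an endocytic adaptor, and Stk4 (r = 0.990), a Hippo pathway kinase. Jak2 was followed by the glycosyltransferase Large2 (r = 0.990), the vitamin C transporter Slc23a1 (r = 0.990) and the glutamate transporter Slc1a1 (r = 0.986). The Jak3-only probe was followed by Ccar2 (r = 0.994), Ppil2 (r = 0.992) and Crip2 (r = 0.990). Over the same 8 tumours these 3 had differences of 0.01, -0.01 and -0.10 between AZD1480 and vehicle, against -0.82 for Jak3. Tyk2 was followed by Mast3 (r = 0.993), the splicing factor Prpf6 (r = 0.990) and the vesicle tethering factor Vps52 (r = 0.984). The shared probe had other neighbours, Tnrc6c (r = 0.959), Wiz (r = 0.956) and Zbtb7a (r = 0.947). A correlation above 0.9 was reached by 3.62% of the genes for Jak1, 3.47% for Jak2, 2.34% for the Jak3-only probe, 1.80% for Tyk2 and 0.104% for the shared probe.

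Because Jak3 is mainly a leukocyte kinase, leukocyte markers were set beside it. The 8 general leukocyte markers (8 of 8 tested, Ptprc among them) had a mean log2 level of -2.80, -1.23, -0.85 and -1.56 in AZD1480 replicates 1 to 4, against -1.001, -1.29, -1.08 and -0.71 in vehicle replicates 1 to 4. Their summed level ran from 2.00 to 8.02 in AZD1480 tumours and from 6.96 to 8.91 in vehicle tumours. All 8 had negative differences, with a median of -0.67, which was -0.24 without AZD1480 replicate 1, against -0.63 for the Jak3-only probe without that array. A run of negative differences was not particular to leukocytes. All 10 epithelial tumour cell markers tested were negative too (median -0.47, or -0.28 without AZD1480 replicate 1). So were all 7 of oviduct ciliated cells (median -1.42, or -0.05 without that array). The 5 granulosa markers tested (median -0.38, or -1.55 without that array) and the 4 adipocyte markers tested (median -2.23, or -2.19) were negative as well. Endothelial markers had 5 negative and 3 positive differences, and fibroblast and stroma markers 6 and 2. Of the 14 T and NK cell markers 10 were tested, and the summed level of these ran from 2.12 to 2.37 in AZD1480 tumours and from 2.22 to 2.37 in vehicle tumours. Of these 10, 7 had negative differences, with a median of -0.44, which was -0.09 without AZD1480 replicate 1, and their mean log2 level was -3.73 ± 0.52 in AZD1480 and -3.40 ± 0.21 in vehicle tumours (SD, n = 4 each). Cd3g, Cd8a, Klrb1c and Ncr1 did not pass the filter, and Ncr1 stayed near background on all 8 arrays. Macrophage and monocyte markers (13 of 13 tested) summed to 14.9 to 64.9 in AZD1480 and 33.9 to 39.6 in vehicle tumours, while their mean log2 level was -0.23 ± 0.77 in AZD1480 and 0.40 ± 0.14 in vehicle tumours. Of the 13, 12 had negative differences, with a median of -0.54 that was -0.13 without AZD1480 replicate 1. At an unadjusted limma p under 0.05, 3 of them were lower, the Fc receptor genes Fcgr3 (-0.92 ± 0.24) and Fcgr1 (-1.39 ± 0.49), whose groups did not overlap, and the mannose receptor gene Mrc1 (-1.04 ± 0.31), whose groups did. Without AZD1480 replicate 1 these 3 were at -0.81, -0.92 and -0.97, and over all 8 arrays each had a limma adjusted p of 0.953. Of all genes tested 1.89% were lower at an unadjusted limma p under 0.05. The groups did not overlap, with AZD1480 lower, for 1.25% of all tested probes. The 6 B and plasma cell markers tested of 8 summed to 0.356 to 1.45 in AZD1480 and 0.426 to 1.03 in vehicle tumours, with 3 negative and 3 positive differences and a median of -0.32, or -0.08 without AZD1480 replicate 1. The 6 neutrophil and mast cell markers tested of 8 summed to 20.1 to 105 in AZD1480 and 24.9 to 52.2 in vehicle tumours. That sum mainly followed 1 bright probe, that of Csf3r, at a mean log2 level of 5.59 in AZD1480 and 5.26 in vehicle tumours. S100a9 averaged -1.63 and -1.69 and S100a8 -3.21 and -3.32, AZD1480 first, and Ly6g and Retnlg did not pass the filter. The 6 markers had 2 negative and 4 positive differences, with a median of 0.09, or -0.69 without AZD1480 replicate 1.

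Relative to the mean of the general leukocyte markers on the same array, the Jak3-only probe differed by -0.23 (-2.75 ± 0.62 in AZD1480 and -2.52 ± 0.25 in vehicle, exact permutation p = 0.486, n = 4 each), and by -0.44 without AZD1480 replicate 1. Relative to the T and NK cell markers it differed by -0.49 (exact permutation p = 0.171), and by -0.56 without that array. Both comparisons were added after the data were seen, and the part of leukocyte content in the Jak3 values was not tested beyond them. Il2rg, whose product carries Jak3 at the receptor, was at -4.73, -3.78, -3.44 and -4.03 in AZD1480 replicates 1 to 4, against -3.48, -3.56, -3.57 and -3.41 in vehicle replicates 1 to 4. Its groups overlapped through AZD1480 replicate 3, with a difference of -0.49 ± 0.27 (limma adjusted p = 0.953) that was -0.24 without AZD1480 replicate 1.

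**Figure D4:**
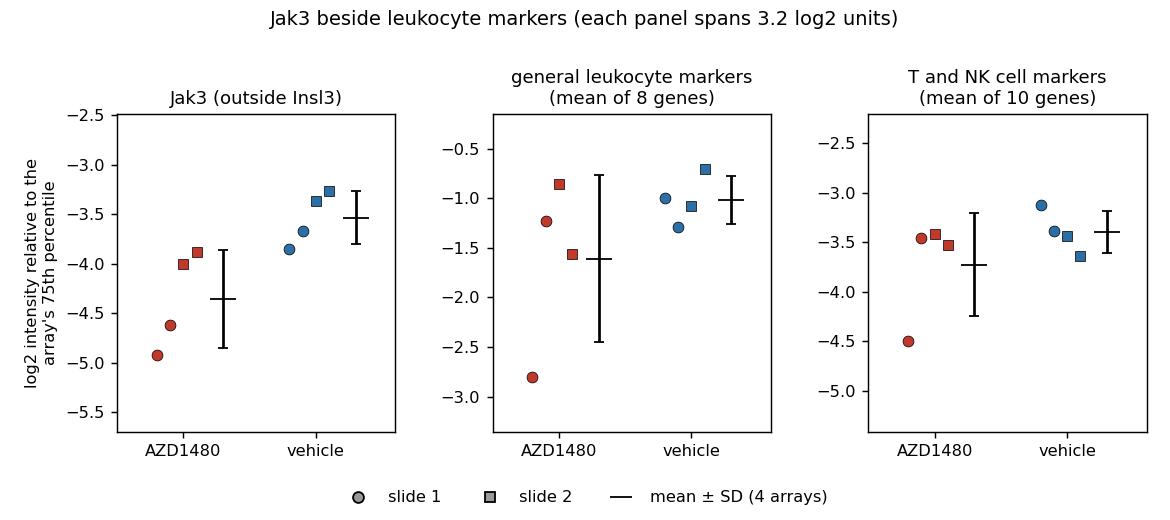
Log2 level of the Jak3-only probe and the mean log2 level of 8 general leukocyte markers and of 10 T and NK cell markers, by tumour, relative to the 75th percentile of the array, with circles for slide 1, squares for slide 2 and mean ± SD of 4 arrays. AZD1480 replicate 1 is the lowest tumour in all 3 panels, at -4.92, -2.80 and -4.50, and the groups are parted only in the Jak3 panel.

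The other genes of the pathway were described by their roles, with 1 probe per gene, against a median of 0.03 over all 17012 genes so tested. In none of the 5 lists did a gene pass limma's test over all probes, and at an unadjusted p under 0.05 1.89% of all genes were lower and 1.63% higher. Of the cytokine receptor chains that bind JAK kinases, 32 of 34 were tested (Il9r and Il23r were not), 18 with negative and 14 with positive differences and a median of -0.08 (-0.05 without AZD1480 replicate 1), and 2 were lower and 0 higher at an unadjusted p under 0.05. They were the oncostatin M receptor gene Osmr, at -1.25 ± 1.15 in AZD1480 and 0.36 ± 0.25 in vehicle tumours, and Il13ra1, a chain of the IL-4 and IL-13 receptor, at -3.63 ± 0.26 and -2.89 ± 0.22, AZD1480 first (SD, n = 4 each). The difference was -1.61 ± 0.53 for Osmr, or -1.05 without AZD1480 replicate 1, and -0.74 ± 0.19 for Il13ra1, or -0.72 without it. Neither gene overlapped between the groups, as was so for 2.61% of all tested probes in either direction. Il21r, a receptor that pairs with the common gamma chain, was at -0.76 ± 0.34, or -0.43 without AZD1480 replicate 1.

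The 6 STAT genes described here, which encode substrates of the kinases, were all tested, and 3 had negative and 3 positive differences, with a median of -0.24, which was -0.14 without AZD1480 replicate 1. Of these 3 were lower at an unadjusted p under 0.05, Stat3 (-0.90 ± 0.26), Stat4 (-0.71 ± 0.27, well above background on 2 of 4 AZD1480 arrays) and Stat2 (-0.53 ± 0.21), and Stat5a was at 0.31 ± 0.21. The AZD1480 and vehicle groups overlapped for Stat3, Stat4 and Stat2. Of 8 SOCS family genes, whose products bind and inhibit JAK kinases or their receptors, 1 was lower at that p, Socs3 (-0.84 ± 0.26). Its groups narrowly did not overlap, the highest AZD1480 level being 0.75 and the lowest vehicle level 0.80. That was so, with AZD1480 lower, for 1.25% of all tested probes. Socs2 was at 0.87 ± 0.47, Socs4 at 0.38 ± 0.23 and Socs6 at -0.17 ± 0.16, and the median of the 8 was 0.04.

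The 11 phosphatases and other brakes had a median of 0.10, with 3 negative and 8 positive differences and 0 genes at an unadjusted p under 0.05 in limma. Those with the smallest p were the STAT inhibitor Pias3 (0.40 ± 0.22) and Pias2 (0.20 ± 0.15), and the leukocyte phosphatases Ptprc (-0.69 ± 0.40) and Ptpn6 (-0.89 ± 0.55), which were at -0.34 and -0.28 without AZD1480 replicate 1. The groups of Ptpn6 did not overlap, as was so, with AZD1480 lower, for 1.25% of all tested probes. Among 10 adaptors and other partners the median was -0.06, or -0.01 without AZD1480 replicate 1, and 1 was lower at an unadjusted p under 0.05. It was Irf9, the DNA-binding part of an interferon-activated complex that holds Stat2, at 0.13, 0.70, 1.31 and 0.93 in AZD1480 replicates 1 to 4, against 1.69, 1.86, 1.76 and 2.26 in vehicle replicates 1 to 4. Its groups did not overlap, and its difference was -1.13 ± 0.27, or -0.92 without AZD1480 replicate 1. The JAK-binding adaptors Sh2b2 and Sh2b1 were at -0.54 ± 0.26 and 0.30 ± 0.17, and the endosomal adaptor Stam2 at -0.24 ± 0.17. All these genes had limma adjusted p of 0.953.

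**Figure D5:**
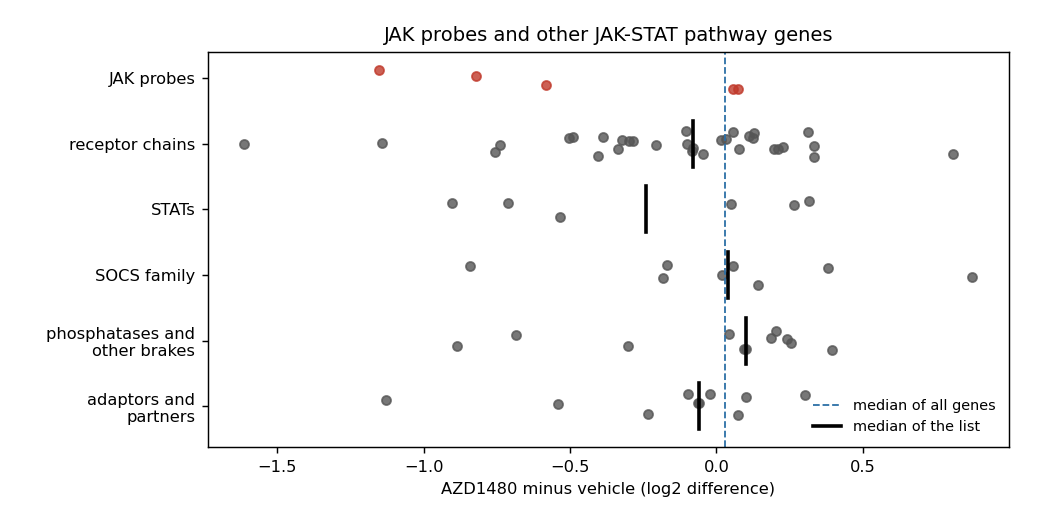
AZD1480 minus vehicle difference on the log2 scale for the 5 JAK probes (red) and for the genes of 5 pathway lists (grey, 1 probe per gene), with the median of each list (black bar) and of all genes (dashed line at 0.03). The STAT list, 6 genes, has the lowest median, -0.24, and the other lists have medians between -0.08 and 0.10.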

How the data were processed

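Transcript levels were measured in 8 ovarian tumours. Per the submitters' processing notes, Agilent Feature Extraction 9.5.3 read the scans, and per the file headers the processed intensity of a spot was background-subtracted and detrended within its array. The authors also deposited a table of log2 values, whose columns share 1 distribution (median 8.36). Its method is not stated in the labels or headers, and it served as an alternative.

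Log2 processed intensities were scaled to the 75th percentile of the spots that are not controls, and spots of a probe were averaged without outlier flags. Probes well above background on at least 4 of 8 arrays, 28330 in all, went into limma 3.58.1 (R 4.3.3), treatment being the only term, two-sided, with Benjamini-Hochberg adjustment over all probes and a threshold of 0.05. The fit was run on simulated data with known changes and independent noise. They held no slide effect and no outlying tumour, so that run does not bear on either. A gene outside the family was represented by its brightest kept probe, named through RefSeq symbols. Mice were separate animals, and 4 arrays per group limit the precision.

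The members, lists and rules were chosen with earlier results of these data known. 1 member of the pathway lists is not reported here and was left out of their counts and medians. The text names all JAK probes, up to 4 genes of each pathway list with the smallest p, and the 3 nearest genes by Pearson r per kinase. Alternatives were normexp, quantile and median scaling, other filters, the deposited table, slide as a covariate or one by one, array weights, 1 probe per gene, each array left out, and the replicate number as a block.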

Additional observations from a re-analysis of the deposited data

Results flagged for a closer look

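The within-array log2 ratio of Tyk2 over Jak3 was 1.96 in vehicle replicate 1, far from the other 3 vehicle tumours, which lay at 1.64 to 1.70. The tumour was marked because its gap to the nearest of the others was 0.833 of the range of its group, just over the 95% limit for 4 values. It still lay below all 4 AZD1480 tumours. In all 22 groups of 4 values were looked at in this way, and chance marks about 1 in 20.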

How the results depend on the processing

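Under 20 settings for each JAK probe (19 for the shared Jak3 probe), Jak2 and both Jak3 probes kept a negative difference, between -0.80 and -0.22 for Jak2, -1.02 and -0.59 for the Jak3-only probe, and -1.50 and -0.75 for the shared probe, the smallest Jak3 values coming with normexp background correction. The smallest adjusted p of any JAK probe in limma was 0.502. Jak1 changed sign with the deposited value table (-0.014), within slide 2 (-0.13), with array weights (-0.22) and relative to Tyk2 (-0.018, added after seeing the data), and with 1 array left out it ran from -0.23 (without AZD1480 replicate 1) to 0.25. Tyk2 changed sign within slide 1 (-0.12) and ran from -0.095 to 0.24 with 1 array left out. The cause of these sign changes was not tested. The exact permutation test put the Jak3-only probe (-0.82) under 0.05 unadjusted. No probe passed in limma under any setting, with 622 to 2434 at an unadjusted p under 0.05, so the 0 calls among JAK probes and in the 5 pathway lists did not change. The shift of Tyk2 over Jak3 was 0.67 with normexp, which adds an offset that shrinks differences of dim probes, and 1.23 with the shared probe. Relations adjusted over 6 pairs passed with treatment taken out for Jak3 and Tyk2 (r = 0.95), and with slide and treatment taken out together, added after seeing the data, for Jak3 and Tyk2 (r = 0.79), Jak1 and Jak2 (r = -0.81, but -0.12 without AZD1480 replicates 1 and 2) and Jak1 and Jak3 (r = -0.82, but 0.025 with the shared probe). By rho these 3 did not pass in the exact permutation test (adjusted p = 0.0643 for Jak1 and Jak3 and 0.139 for the others). Deviations of same-numbered tumours correlated at 0.38, 0.35, 0.078 and 0.045, and 5 of 8 arrays matched their own number best. Same-numbered tumours also shared a slide, so a pairing by replicate number cannot be told apart from the slide. The fit with the replicate block called 0 probes, with the Jak3-only probe at -0.82 (limma adjusted p = 0.805). The number of arrays limits the precision of all these values.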

Other observations

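The distance between the 2 Jak3 probes was largest in vehicle replicate 1, where the shared probe stood 1.22 above the Jak3-only probe on the log2 scale. In the other tumours that distance was -0.26, -0.04, -0.63 and 0.06 in AZD1480 replicates 1 to 4, and -0.56, 0.23 and -0.44 in vehicle replicates 2 to 4. Star, a steroid synthesis gene of ovarian hormone-producing cells, was higher in AZD1480 replicate 1 (-2.49) and in vehicle replicates 1 and 3 (-2.40 and -2.90) than in the other tumours (-5.65 to -4.86). The inhibin gene Inha was likewise at 4.44, 2.00 and 1.56 in these 3 tumours, and at -4.18 to -2.78 in the rest. Both genes were chosen after their values were seen, and their part in the shared probe's signal was not tested.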
